A study of Mus musculus with 9 samples.

Results

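The genes described here are 30 mouse genes of the lysosome, made up of lumenal hydrolases and their cofactors, membrane proteins of the organelle and the transcription factor Tfeb. They were taken by gene symbol from a table of 16537 genes, which held all 30, and all 30 were among the 12837 genes tested. The RNA came from cells sorted out of the bone marrow of FVB/NJ mice, an inbred strain, and was sequenced as 9 libraries in 3 groups. The control group, HPC, was hematopoietic progenitor cells of wild-type mice at postnatal day 42, in 3 libraries. The other groups were leukemic progenitors (LP) of mice of the PML-RAR genotype, 3 libraries of cells from the phase labelled early and 3 from the phase labelled median, written here as early LP and median LP. PML-RAR is the fusion of the promyelocytic leukemia protein with retinoic acid receptor alpha that marks acute promyelocytic leukemia, and the promoter that drives it in these mice, the age of the leukemic mice and the markers used for sorting are not stated in the sources at hand. Genotype, age and sorted population therefore cannot be told apart in a comparison of LP with HPC. No label ties the 3 replicates in a group to separate animals, so p-values measure only the spread among these replicates, and that spread may be technical.

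Lysosomes are acidic vesicles in which proteases, glycosidases, lipases and other hydrolases break down material delivered by endocytosis, phagocytosis and autophagy. Most of the soluble enzymes are made in the endoplasmic reticulum, tagged with mannose 6-phosphate in the Golgi and carried to the organelle by receptors, while a proton pump keeps the lumen acidic. Transcription factors of the MiT family, among them TFEB, bind an E-box element in the promoters of many lysosomal genes, and mTORC1 on the lysosomal surface holds TFEB in the cytoplasm when nutrients are plentiful. In myeloid cells the same enzymes also reach the primary granules, which are lysosome-related organelles that promyelocytes build.

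The libraries held 20.6 to 28.4 M (mega) fragments each, as recovered from the files, and the top gene held 1.23 to 3.83% of all counts. Levels are FPKM (fragments per kilobase of transcript and per 1 M fragments) as deposited, multiplied by 1 factor per library so that they stand on the scale of the edgeR fit, and they are written below as FPKM and as mean ± SD of 3 libraries. Alternative fits with limma took the deposited FPKM without that factor, so they also differ from edgeR in scaling. Changes are log2 differences from edgeR's quasi-likelihood test with their standard error (SE), and a call means a two-sided p under 0.05 after Benjamini-Hochberg adjustment over all genes tested. HPC replicate 3 stood apart from the others of its group in how counts moved with transcript length (a slope of -0.117 in log2 CPM, log2 counts per 1 M, per log2 length, against 0.0501 and 0.0669). Kit, a receptor of immature progenitors and mast cells, was at 80.2 ± 3.82 FPKM in HPC, 46.3 ± 0.153 in early and 45.7 ± 1.57 in median LP, while Cd34, a stem and progenitor surface protein, was at 104 ± 13.1, 1.32 ± 0.107 and 0.533 ± 0.111 FPKM, so Cd34 was near absent from the cells labelled leukemic progenitors.

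Most of the 30 lysosomal genes had more RNA in both kinds of leukemic progenitors than in HPC. Against HPC, 20 of the 30 rose and 2 fell in early LP, where 35.3% of all genes tested were called higher, 37.9% lower and 73.2% in either direction. In median LP 21 rose and 3 fell, against 36% of all genes called higher, 37.7% lower and 73.8% in either direction. The share of members called in either direction was thus 73.3% in early LP and 80% in median LP, near that of all genes, while the share called higher was 66.7% and 70%. The members and the other lists below were chosen with earlier results of these data known, so such shares are a description and carry no test. The median log2 change over the 30 was 0.73 in early LP and 0.58 in median LP, against -0.04 over all genes tested in each. At least 2-fold differences were called upward for 10 members in early LP (15.6% of all genes) and 8 in median LP (16.2%), and downward for Lgmn and Gaa in both (14.2% and 14.5%). The HPC and LP libraries did not overlap for 23 of the 30 in early LP and 25 in median LP, in CPM, against 74.7% and 75.7% of all genes. Both comparisons share the 3 HPC libraries. In bulk RNA a change in the share of cells that carry a transcript and a change in the amount per cell cannot be told apart.

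**Figure D1:**
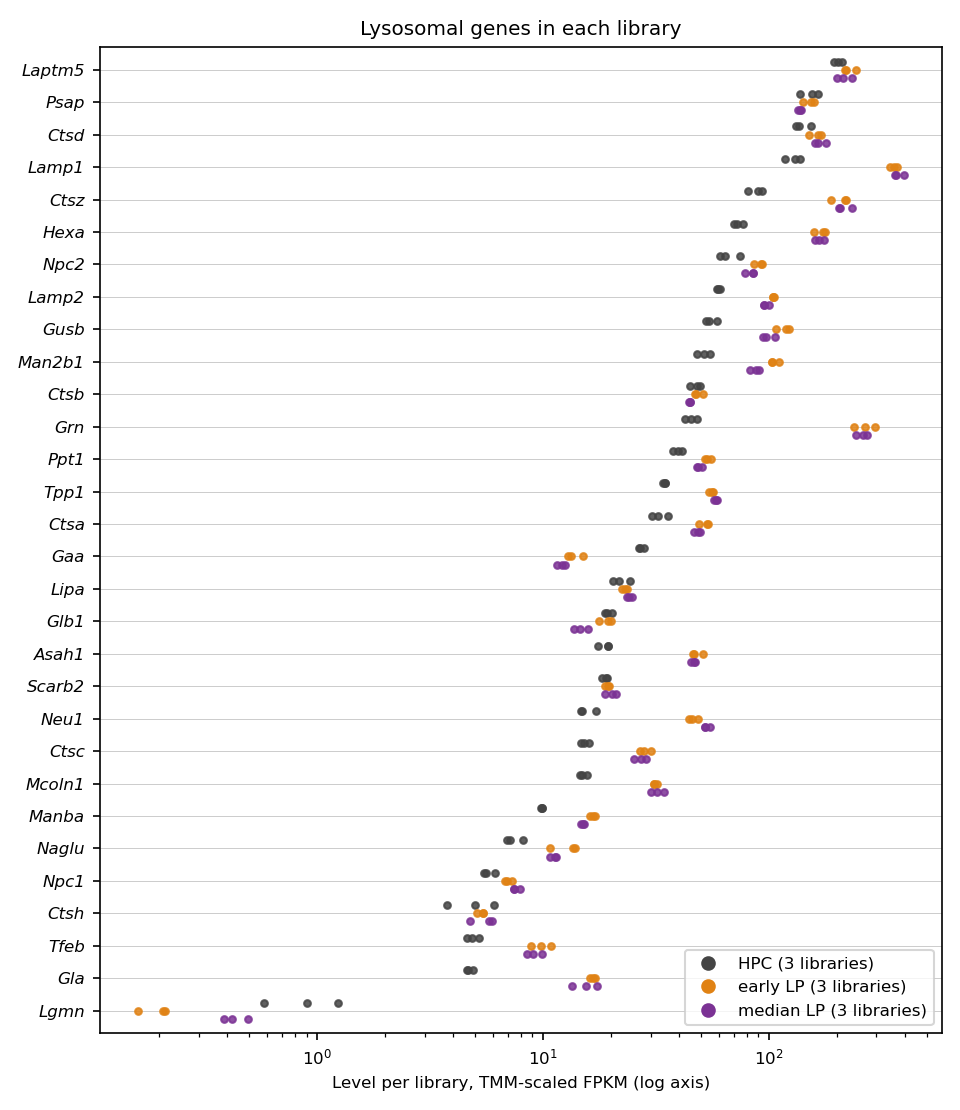
Level of each of the 30 lysosomal genes in each library, in TMM-scaled FPKM on a log axis, with HPC in grey, early LP in orange and median LP in purple, and genes ordered by their mean in HPC. Grn moved from 45.3 FPKM in HPC to 267 in early and 259.9 in median LP, while Gaa and Lgmn lay lower in LP than in HPC.

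**Figure D2:**
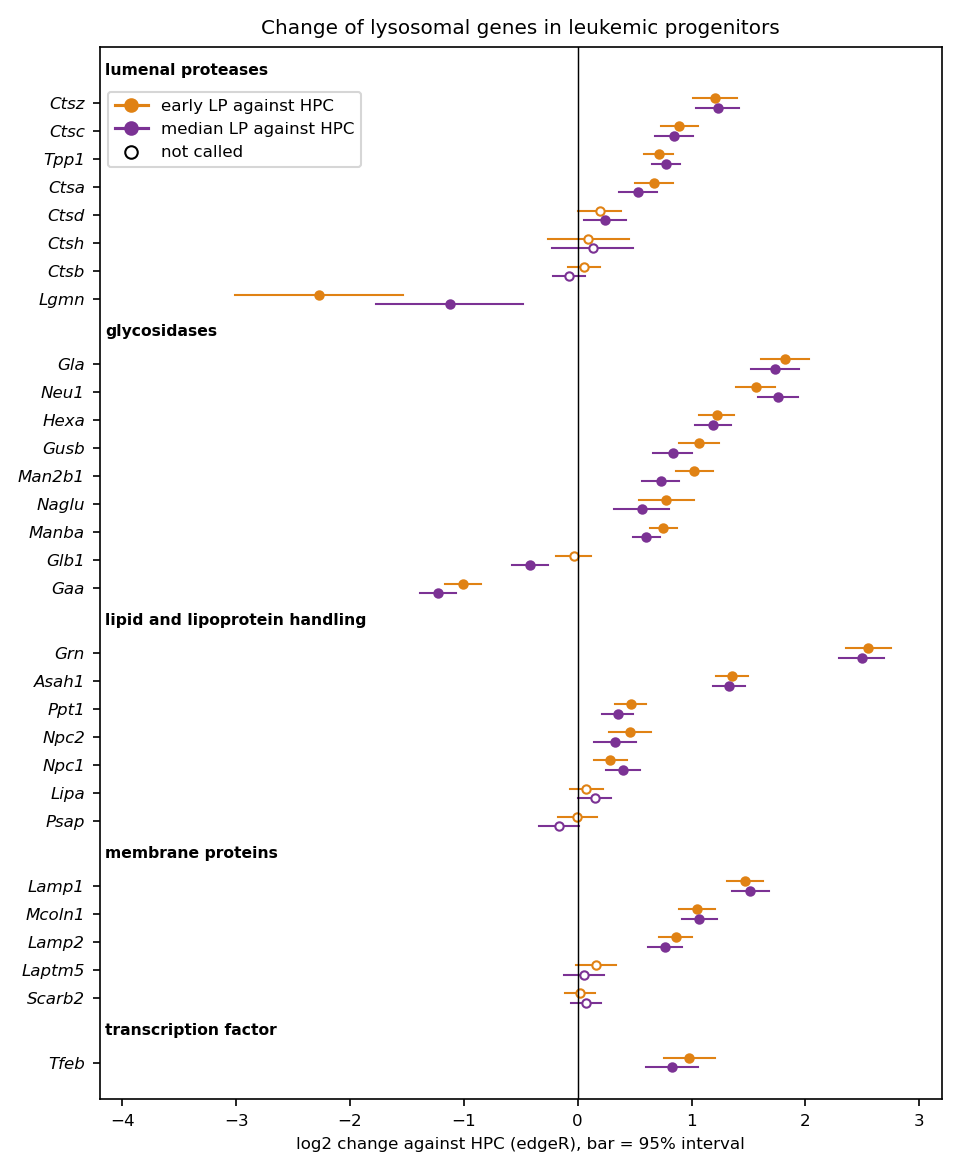
Log2 change of each member against HPC from edgeR, grouped by the protein's role, with bars for the 95% interval and open circles for changes that were not called. Most points lie right of the line at 0, Lgmn and Gaa lie left of it in both comparisons, and 6 genes (Ctsb, Ctsh, Psap, Lipa, Laptm5 and Scarb2) are open in both.

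The E-box through which TFEB and its relatives act on lysosomal genes has the core CACGTG, which is extended to TCACGTGA and, in its longest form, has a further G before and C after that. These letters were searched on both strands of RefSeq promoters of GRCm38.p6, taken from 250 bases before to 50 after each start. All 3 are palindromes and each lies within the next. Promoters were found for 26 of the 30 genes, 31 promoters in all, and Asah1, Ctsb, Ctsh and Npc1 had none in the table. CACGTG lay in 9 of the 31 (29.0%), against 7.15% of all 32851 promoters and 9.92% of the promoters of genes tested. TCACGTGA lay in 4 (12.9%), against 0.974% and 1.86%, and the longest form in 0 of 31, against 0.326% of all promoters. The promoters with TCACGTGA are those of Ctsa and Gla, which hold it in a pair, and of Ctsd and Mcoln1. They are shown because they carry the extended element in genes measured here, each as a 28-base window on the gene's own strand with the element in capitals.
Ctsa, chr2:164833750-164833777, plus strand, element starting 13 bases before the start: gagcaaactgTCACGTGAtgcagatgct
Ctsa, chr2:164833767-164833794, plus strand: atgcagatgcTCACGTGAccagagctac
Gla, chrX:134601216-134601243, minus strand, element starting 228 bases before the start: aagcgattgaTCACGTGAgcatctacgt
Gla, chrX:134601183-134601210, minus strand, element starting 195 bases before the start: gagatctcggTCACGTGAgcaactctcg
Ctsd, chr7:142387909-142387936, minus strand, element starting 99 bases before the start: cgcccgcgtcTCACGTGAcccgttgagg
Mcoln1, chr8:3500463-3500490, plus strand, element starting 46 bases before the start: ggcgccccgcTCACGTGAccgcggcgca

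Changes of the members with and without these letters overlapped. The 4 genes with TCACGTGA had a median log2 change of 0.86 in early and 0.80 in median LP, and the other 22 with a promoter had 0.76 and 0.67. With the core CACGTG, which Gaa, Glb1, Lamp1, Lgmn and Naglu also hold, the medians were 0.67 and 0.53 over 9 genes, against 0.86 and 0.77 over the 17 without it. Both members that fell by at least 2-fold, Gaa and Lgmn, are among the 9. Grn, the member with the largest rise, holds none of the letters in this window. These counts describe letters in a short window and carry no test.

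Among the 8 lumenal proteases and their activators, 4 rose in early and 5 in median LP, and 1 fell in both. That is 50% and 62.5% called higher, against 35.3% and 36% of all genes tested. Called lower were 12.5% in each, against 37.9% and 37.7%. In either direction 62.5% were called in early and 75% in median LP, against 73.2% and 73.8% of all genes. The largest rise was that of Ctsz (chr2:174415804-174438992, mm10), cathepsin Z, a carboxypeptidase that is abundant in monocytes and macrophages. Its level was 93.9, 81.3 and 89.8 FPKM in the HPC libraries, 189, 219 and 217 in early and 234, 208 and 204 in median LP. Every LP library was above every HPC library, and the log2 change was 1.21 (SE 0.09; edgeR adjusted p = 1.31e-07) and 1.23 (SE 0.09; edgeR adjusted p = 1.09e-07). Ctsc (chr7:88278093-88310875), cathepsin C or dipeptidyl peptidase I, which activates the serine proteases of granulocytes such as neutrophil elastase, was at 16.04, 14.8 and 15.2 FPKM in HPC, 26.9, 28.2 and 30.2 in early and 28.6, 27.2 and 25.3 in median LP. It rose 1.86-fold and 1.79-fold, with no overlap between HPC and LP (log2 0.89, SE 0.08, and 0.84, SE 0.08). Tpp1, tripeptidyl peptidase 1, rose by 0.71 (SE 0.06) and 0.78 (SE 0.06) on the log2 scale, from 34.5 ± 0.349 FPKM to 55.7 ± 1.35 and 58.3 ± 1.03.

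Ctsa (chr2:164830730-164857708), cathepsin A, which also protects the sialidase Neu1 and beta-galactosidase in a complex and whose promoter holds the paired element shown above, rose by 0.67 (SE 0.08) and 0.53 (SE 0.08) on the log2 scale. Its libraries were at 32.4, 30.5 and 35.8 FPKM in HPC, 49.4, 53.9 and 53.3 in early and 49.6, 46.6 and 48.6 in median LP, without overlap between HPC and LP. Cathepsin D (Ctsd, chr7:142375916-142387870), the main aspartic protease of the organelle and also a gene with the element, was among the most abundant members at 140.5 ± 11.97 FPKM in HPC. It was at 150.2, 170.2 and 165 FPKM in early LP, where the HPC libraries (132, 136 and 154 FPKM) overlapped it and it was not called (log2 0.19, SE 0.09; edgeR adjusted p = 0.0596). In median LP it was called higher by 0.24 (SE 0.09; edgeR adjusted p = 0.0241), and the call ended without HPC 1 (adjusted p = 0.0622), HPC 2 (0.0608) or median LP 1 (0.0810) and with limma on FPKM (0.145 to 0.176). The early LP change was in turn called without HPC 3 (log2 0.28; edgeR adjusted p = 0.00514) or early LP 1 (0.25; 0.0306), by DESeq2 (0.20; 0.0483) and with the length slope as a covariate (0.20; 0.00249).

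Cathepsins B and H did not pass the test in either comparison. Ctsb, a cysteine protease, stood at 47.5 ± 2.56 FPKM in HPC, 48.7 ± 2.14 in early and 44.6 ± 0.334 in median LP, with 95% intervals of the log2 change of -0.09 to 0.19 and -0.22 to 0.07. Ctsh, an aminopeptidase, was spread widest in HPC, at 6.05, 3.76 and 4.997 FPKM, and its intervals were -0.26 to 0.45 and -0.22 to 0.49. Legumain (Lgmn), the asparaginyl endopeptidase that processes several cathepsins, had the lowest level of all members. Its libraries were at 0.908, 0.581 and 1.24 FPKM in HPC, 0.214, 0.208 and 0.161 in early and 0.495, 0.388 and 0.4197 in median LP, so each HPC library was above every LP library. It fell by 2.27 (SE 0.34; edgeR adjusted p = 7.05e-05) in early LP and by 1.13 (SE 0.29; edgeR adjusted p = 0.00441) in median LP in log2 units. In limma's fit of log2(FPKM + 1) with no filter on low values, which compresses low levels, it fell by 0.63 and by 0.40.

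Of the 9 glycosidases, 7 rose in both comparisons, Gaa fell in both, and Glb1 fell in median LP and was not called in early LP. The share called higher was thus 77.8% in each, against 35.3% and 36% of all genes tested. The share called lower was 11.1% and 22.2%, against 37.9% and 37.7%. The strongest rise was that of Gla (chrX:134588169-134601005), alpha-galactosidase A, the enzyme missing in Fabry disease, whose promoter holds the element in a pair. Its levels were 4.904, 4.596 and 4.65 FPKM in HPC, 16.1, 16.7 and 17.1 in early and 17.4, 15.6 and 13.4 in median LP. The rise was 3.54-fold and 3.32-fold (log2 1.82, SE 0.10, and 1.73, SE 0.10), far outside the spread of the libraries. Neu1 (chr17:34931253-34937297), the lysosomal sialidase, was at 17.3, 14.7 and 14.9 FPKM in HPC, 44.2, 48.7 and 45.9 in early and 55.2, 52.5 and 52.2 in median LP, and each group lay above the one before it without overlap. Its log2 change was 1.56 (SE 0.08; edgeR adjusted p = 4.7e-09) and 1.76 (SE 0.08; edgeR adjusted p = 1.67e-09). Hexa (chr9:59539667-59565105), the alpha subunit of beta-hexosaminidase A that is defective in Tay-Sachs disease, was the most abundant glycosidase at 73.3 ± 3.56 FPKM in HPC, 169.9 ± 9.48 in early and 167 ± 7.17 in median LP. It rose by 1.22 (SE 0.07) and 1.19 (SE 0.07) on the log2 scale.

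Gusb, beta-glucuronidase, and Man2b1, lysosomal alpha-mannosidase, rose 2.09-fold and 2.04-fold in early LP and 1.78-fold and 1.66-fold in median LP. The levels of Gusb were 54.6, 52.8 and 58.95 FPKM in HPC, 107, 123 and 119 in early and 107, 97.7 and 94.5 in median LP, for log2 changes of 1.07 (SE 0.08) and 0.84 (SE 0.08). Man2b1 was at 51.9, 48.1 and 54.9 FPKM in HPC, 104, 111 and 104 in early and 82.98, 87.7 and 90.7 in median LP, for 1.03 (SE 0.07) and 0.73 (SE 0.07). In all cases the LP libraries lay above the HPC libraries. Manba, the beta-mannosidase, rose from 9.87 ± 0.0798 FPKM to 16.6 ± 0.4498 and 15 ± 0.186, and Naglu, which removes N-acetylglucosamine from heparan sulfate, from 7.396 ± 0.657 FPKM to 12.7 ± 1.72 and 11.2 ± 0.398.

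Gaa (chr11:119267967-119285698), acid alpha-glucosidase, which degrades glycogen in the lysosome and is missing in Pompe disease, went the other way. Its libraries were at 26.6, 26.9 and 28.03 FPKM in HPC, 12.9, 15.01 and 13.4 in early and 12.5, 12.1 and 11.6 in median LP. The level in HPC was 2.01 times that in early LP and 2.35 times that in median LP, and the gene fell by 1.01 (SE 0.07; edgeR adjusted p = 1.11e-07) and by 1.23 (SE 0.07; edgeR adjusted p = 1.87e-08) in log2 units. Glb1 (chr9:114401095-114474377), lysosomal beta-galactosidase, stood at 19.3, 18.8 and 20.4 FPKM in HPC and 17.7, 19.5 and 19.95 in early LP, which overlap (95% interval of the log2 change -0.19 to 0.12). In median LP it was at 15.8, 13.8 and 14.6 FPKM, below every other library, and had fallen by 0.42 (SE 0.07; edgeR adjusted p = 0.000234) against HPC. The 3 proteins known to form a complex, cathepsin A, the sialidase and beta-galactosidase, were thus encoded by RNAs of which Neu1 and Ctsa rose and Glb1 did not.

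Among the 7 genes of lipid and lipoprotein handling, 5 rose in both comparisons and none was called lower. That is 71.4% called higher in each, against 35.3% of all genes tested in early and 36% in median LP. Of all genes, 37.9% and 37.7% were called lower. Grn (chr11:102430322-102436809), progranulin, a secreted glycoprotein that is cut into granulins in the lysosome and is needed for lysosomal lipid balance, had the largest change of all 30. It was at 48.2, 42.7 and 45.1 FPKM in HPC, 238, 295 and 267 in early and 272, 245 and 263 in median LP. The lowest LP library was several times above the highest HPC library, and the log2 change was 2.55 (SE 0.09; edgeR adjusted p = 2.27e-10) and 2.49 (SE 0.09; edgeR adjusted p = 2.59e-10), or 5.87-fold and 5.63-fold. Psap (chr10:60277628-60302600), prosaposin, the precursor of the saposins that present sphingolipids to the hydrolases and a partner of progranulin in its transport, did not follow it. Its libraries were at 155, 138 and 166 FPKM in HPC, 143, 159 and 154 in early and 138, 134 and 139 in median LP, and HPC overlapped both LP groups. The 95% interval of its log2 change was -0.18 to 0.17 in early LP and -0.34 to 0.01 in median LP, and the latter was called lower without HPC 2 (log2 -0.21; edgeR adjusted p = 0.0281), with the length slope as a covariate (-0.16; 0.0183) and with limma on filtered FPKM (-0.24; 0.0403 and 0.0413).

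Asah1 (chr8:41340643-41374697), acid ceramidase, was at 19.5, 17.5 and 19.4 FPKM in HPC, 51.02, 46.3 and 46.7 in early and 46.5, 46.97 and 45.5 in median LP. It rose by 1.35 (SE 0.06) and 1.33 (SE 0.06) on the log2 scale, with no overlap. The remaining rises in this class were small. Ppt1, palmitoyl-protein thioesterase 1, which removes fatty acids from proteins, rose by 0.46 (SE 0.06) and 0.35 (SE 0.06, 0.23 with limma on log2(FPKM + 1)). Npc1 and Npc2, the membrane and the lumenal protein that together move cholesterol out of the lysosome, rose by 0.29 (SE 0.07) and 0.46 (SE 0.08) in early LP and by 0.40 (SE 0.07) and 0.33 (SE 0.08) in median LP. The change of Npc2 in median LP was not called by limma on FPKM (0.24; adjusted p = 0.0569 to 0.0771). Lipa, lysosomal acid lipase, which hydrolyses cholesteryl esters, was at 22.2 ± 2.04 FPKM in HPC, 23.02 ± 0.5199 in early and 24.1 ± 0.601 in median LP and was not called in either. Without HPC 3 it was called in both (log2 0.14 and 0.21; edgeR adjusted p = 0.0459 and 0.00521), and in median LP also with the length slope as a covariate (0.15; 0.0223).

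Lamp1, Lamp2 and Mcoln1 rose among the 5 membrane proteins, and Laptm5 and Scarb2 were not called. In either direction 60% of the 5 were thus called in each comparison, all higher. Of all genes tested 73.2% and 73.8% were called, with 35.3% and 36% higher. Lamp1 (chr8:13159135-13175338), a heavily glycosylated protein that lines the lysosomal membrane, was at 130.5, 118 and 137 FPKM in HPC, 346, 360.4 and 371 in early and 396, 361 and 364 in median LP. This is a rise of 2.77-fold and 2.86-fold (log2 1.47, SE 0.07, and 1.52, SE 0.07). Its relative Lamp2 (chrX:38405064-38456455), which also serves chaperone-mediated autophagy, was at 60.7, 59.8 and 59.1 FPKM in HPC, 105, 105 and 105 in early and 100.3, 95.5 and 94.9 in median LP, and rose less (0.86, SE 0.07, and 0.77, SE 0.07). Mcoln1 (chr8:3500519-3515231), the calcium channel mucolipin 1 or TRPML1, whose promoter holds the element shown above, was at 14.7, 14.9 and 15.7 FPKM in HPC, 32, 31.1 and 31.1 in early and 30.2, 32.1 and 34.3 in median LP (log2 1.05, SE 0.07, and 1.07, SE 0.07). Laptm5, a membrane protein of hematopoietic cells, was the most abundant member in HPC at 203 ± 8.78 FPKM and stood at 226 ± 14.2 and 216 ± 16.7 in LP (95% intervals -0.02 to 0.33 and -0.12 to 0.23). Scarb2 or LIMP-2, a sorting receptor and membrane protein of the lysosome, was at 18.8 ± 0.502, 19.3 ± 0.377 and 20.04 ± 1.12 FPKM, with intervals of -0.11 to 0.15 and -0.06 to 0.20.

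Tfeb (chr17:47737037-47792416), the MiT factor among the 30, was itself higher in LP. Its levels were 4.86, 4.603 and 5.197 FPKM in HPC, 8.91, 10.9 and 9.78 in early and 9.92, 8.47 and 9.09 in median LP, without overlap between HPC and LP. The log2 change was 0.98 (SE 0.10; edgeR adjusted p = 3.8e-06) and 0.83 (SE 0.10; edgeR adjusted p = 1.67e-05). The other MiT genes differed in level and change. Tfec, a family member of macrophages, had the highest level of the 4 in every group, at 28.2, 26.2 and 22.97 FPKM in HPC, 144, 141 and 143 in early and 142, 153 and 143 in median LP, and rose by 2.46 (SE 0.08) and 2.5 (SE 0.08). Mitf, the melanocyte and mast cell factor, rose by 1.05 (SE 0.13) and 1.32 (SE 0.13) from 1.62 ± 0.307 FPKM, or by 0.68 and 0.84 on the log2(FPKM + 1) scale of limma. Tfe3, a ubiquitous member, was at 10.5 ± 0.826, 10.9 ± 1.02 and 10.1 ± 0.722 FPKM and was not called (95% intervals -0.19 to 0.20 and -0.30 to 0.09), although its main transcript alone was called lower in early LP (log2 -0.72; edgeR adjusted p = 0.00866). RNA levels do not show where in the cell these proteins are.

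**Figure D3:**
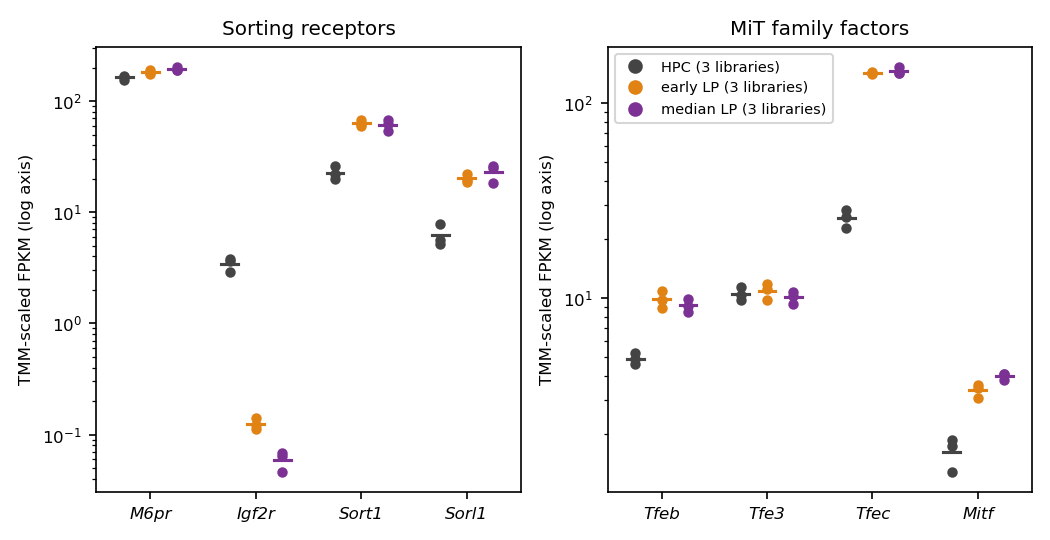
Level of 4 receptors that carry enzymes to the lysosome (left) and of the 4 MiT family factors (right) in each library, in TMM-scaled FPKM on log axes that differ between the panels, with horizontal bars at the group means. Igf2r dropped from 3.45 FPKM in HPC to 0.125 and 0.0593 in LP while Sort1 and Sorl1 stood higher, and Tfec and Tfeb stood higher in LP while the groups of Tfe3 overlap.

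The summed level of the 30 genes was 1411 ± 74.1 FPKM in HPC, 2471 ± 116 in early and 2399 ± 70.3 in median LP, so it stood 1.75 and 1.70 times as high in LP. The genes that made it up also changed places. In HPC the largest shares were those of Laptm5 (14.4%), Psap (10.8%), Ctsd (9.96%) and Lamp1 (9.11%). In early LP they were those of Lamp1 (14.6%), Grn (10.8%), Laptm5 (9.15%) and Ctsz (8.43%), and the same 4 led in median LP with 15.6, 10.8, 9.02 and 8.97%. Grn moved from rank 12 to rank 2, Psap from 2 to 7, and Gaa from 16 to 25. Ratios between some pairs of genes show the same within each library. Lamp1 stood at 2.15, 1.98 and 2.31 times Lamp2 in the HPC libraries, 3.30, 3.43 and 3.55 times in early LP and 3.95, 3.78 and 3.84 times in median LP. Gla stood at 0.184, 0.171 and 0.166 of Gaa in HPC, and at 1.25, 1.11 and 1.27 times Gaa in early LP and 1.39, 1.29 and 1.15 times in median LP, so the order of these alpha-linkage glycosidases was opposite in HPC and LP. The ratio of Grn to Psap was 0.311, 0.309 and 0.272 in HPC, 1.67, 1.85 and 1.74 in early LP and 1.97, 1.82 and 1.89 in median LP. Other pairs were looked at as well, and not all shifted. The ratio of Npc2 to Npc1 moved little, at 11.5 ± 0.638 in HPC, 12.9 ± 0.631 in early and 10.9 ± 0.892 in median LP. All these ratios were chosen with the members' changes known and are given without a test.

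**Figure D4:**
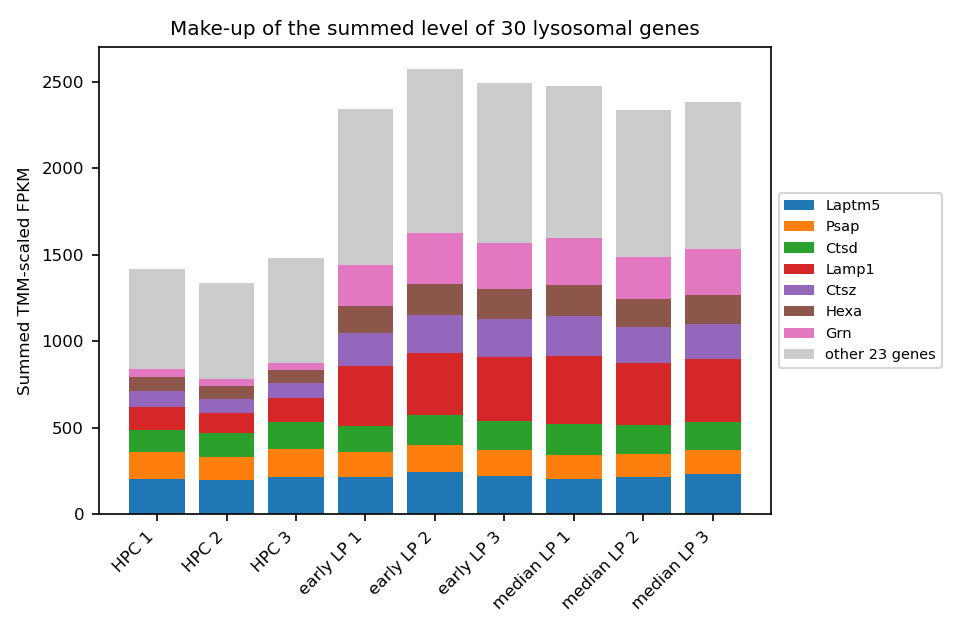
Summed level of the 30 lysosomal genes in each library, in TMM-scaled FPKM, split into the 7 named genes and the other 23. The bars of the HPC libraries end between 1334 and 1482 FPKM and those of the LP libraries between 2337 and 2573, and among the 7 named genes the segments of Lamp1 and Grn widen most.

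Of the 30, 0 were called higher and 1 lower in median LP against early LP (edgeR), where 1.48% of all genes tested were called higher, 0.997% lower and 2.48% in either direction. The median log2 change over the 30 was -0.08, against 0.00 over all genes. At an unadjusted p under 0.05 stood Glb1 and 6 others that were not called, namely Gaa, Gusb, Man2b1 and Manba with lower and Neu1 and Lgmn with higher values in median LP. Glb1 fell by 0.38 (SE 0.07; edgeR adjusted p = 0.0198), and its libraries did not overlap between the phases. The call of Glb1 ended without early LP 2 (adjusted p = 0.0948), early LP 3 (0.104), median LP 2 (0.109) or median LP 3 (0.0685) and with limma on FPKM (0.0717 to 0.101). The other glycosidases stood at a log2 difference of -0.30 (SE 0.07; edgeR adjusted p = 0.0636) for Man2b1, -0.23 (SE 0.08) for Gusb, -0.23 (SE 0.07) for Gaa, -0.15 (SE 0.05) for Manba and 0.20 (SE 0.08) for Neu1. Lgmn had the widest interval, 0.31 to 1.98. Man2b1 was called without HPC 2 (adjusted p = 0.0432) or HPC 3 (0.0231), by DESeq2 (0.00438) and with the length slope as a covariate (0.00936). With that covariate Gusb (log2 -0.23; edgeR adjusted p = 0.0157), Gaa (-0.23; 0.0387) and Lgmn (1.14; 0.0464) were called as well. The slope was taken from these same counts after centring within groups. It therefore acts on the spread within groups and hardly on the differences between them. The groups did not overlap for 15 of the 30, against 26.1% of all genes tested.

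Lamp1, Mcoln1, Man2b1 and Asah1 lie on chromosome 8, where the 706 genes tested had a median log2 change of 0.53 in early and 0.51 in median LP and 66.9 and 67.8% were called higher. All 4 rose, by more than that median. Of the 26 members on other chromosomes, 16 rose and 2 fell in early LP, with a median log2 change of 0.57, and 17 rose and 3 fell in median LP, with 0.46. These are 61.5% higher and 7.69% lower in early LP, and 65.4% and 11.5% in median LP. No member lies on chromosome 15. Of all genes tested off chromosomes 8 and 15, 32% were higher and 40.3% lower in early LP, and 32.7% and 40.1% in median LP. The part of the chromosome in the changes of the 4 was not tested. The loci of Ctsa, Ctsb, Ctsz, Glb1 and Npc1 each hold another gene of the table, and exons of Ctsd, Lamp1 and Ppt1 overlap another gene in the GENCODE annotation. The neighbour lies on the same strand for Ctsd (Gm49369) and for Glb1 (Tmppe), the member called between the phases. Strand would not separate those reads. For the others the neighbour lies on the opposite strand. Whether counting used strand is not stated in the sources at hand, so reads of such neighbours cannot be told apart. Of the 25 members whose locus no other gene of the table shares, 17 rose and 2 fell in early LP and 18 and 2 in median LP. The shares called higher were 68% and 72%, against 35.3% and 36% of all genes tested, shared loci included. Called lower were 8% in each, against 37.9% and 37.7%.

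The other lists of the same organelle held calls in both directions. Of 150 genes in 8 further lists, 145 were tested, and 93 rose and 24 fell in early LP (median log2 change 0.38), while 93 rose and 23 fell in median LP (0.50). These are 64.1% higher and 16.6% lower in early LP, against 35.3% and 37.9% of all genes tested, and 64.1% and 15.9% in median LP, against 36% and 37.7%. On chromosome 15, which holds Arsa of these lists among others, the 498 genes tested had a median of 0.53 in early and 0.51 in median LP. Some genes named from these lists here and below lie on chromosome 8 or 15. The part of the chromosome in their changes was not tested. Without chromosomes 8 and 15, 76 of 128 rose and 24 fell in early LP and 76 and 23 in median LP, or 59.4% called higher in each. Of all genes tested off those chromosomes 32% were called higher and 40.3% lower in early LP, and 32.7% and 40.1% in median LP. Of 38 other lysosomal enzymes 22 rose and 10 fell in early LP and 20 and 8 in median LP. Gm2a, the activator protein that hands GM2 ganglioside to the hexosaminidase of which Hexa is a subunit, rose by 2.2 (SE 0.09) and 2.09 (SE 0.09), and Arsa, arylsulfatase A, by 2.18 (SE 0.10) and 2.1 (SE 0.10). Sgsh, the sulfamidase of heparan sulfate breakdown, went from 3.07, 2.5 and 3.34 FPKM in HPC to 0.393, 0.521 and 0.448 in early and 0.411, 0.347 and 0.413 in median LP, and fell by 2.72 (SE 0.16) and by 2.95 (SE 0.17). In limma's fit of log2(FPKM + 1) it fell by 1.40 and by 1.46. Naaa, an acid amidase of lipid amides, fell by 1.84 (SE 0.15) and by 1.79 (SE 0.15), and Plbd1, a phospholipase B-like protein, by 1.04 (SE 0.20) and by 2.64 (SE 0.23).

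**Figure D5:**
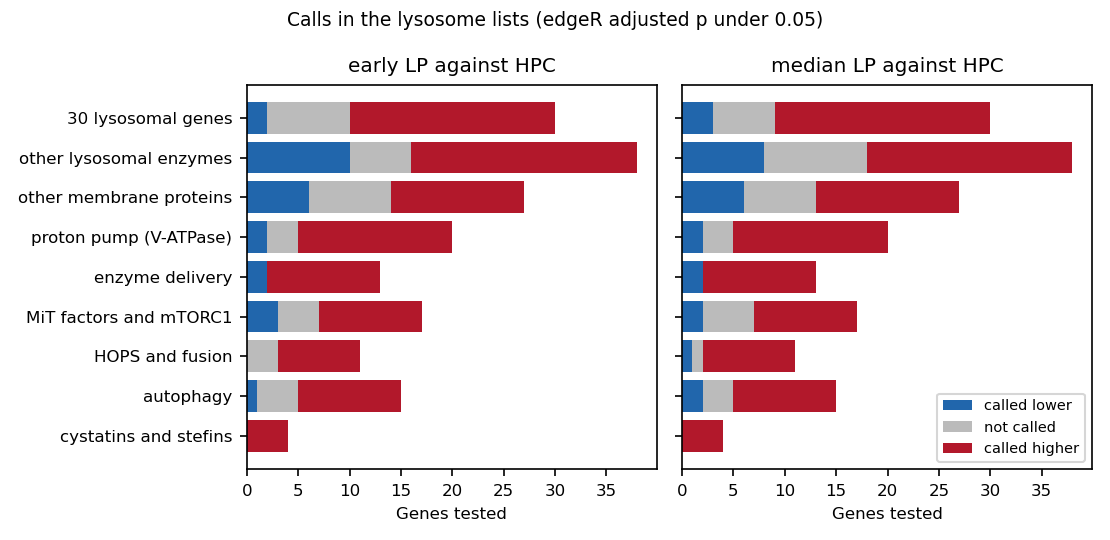
Number of genes called higher (red), called lower (blue) and not called (grey) among the genes tested in the 30 members and 8 other lysosome lists, by edgeR against HPC, with early LP on the left and median LP on the right. Red is the largest part of every bar, and blue is longest among the other lysosomal enzymes.

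The receptors that deliver the enzymes differed in their changes. Of 13 genes of the mannose 6-phosphate and sortilin route, 11 (84.6%) rose and 2 (15.4%) fell in both comparisons. Over all genes tested, 35.3% were called higher and 37.9% lower in early LP, and 36% and 37.7% in median LP. Igf2r, the large cation-independent mannose 6-phosphate receptor, was at 3.76, 3.67 and 2.92 FPKM in HPC, 0.121, 0.141 and 0.112 in early and 0.0458, 0.0685 and 0.0636 in median LP. It fell by 4.8 (SE 0.16; edgeR adjusted p = 1.34e-10) and by 5.86 (SE 0.18; edgeR adjusted p = 6.33e-11), or by 1.89 and by 1.97 on the log2(FPKM + 1) scale of limma, and its locus is shared in the table with Airn and Mas1. M6pr, the small cation-dependent receptor of the same tag, was far more abundant, at 168, 156 and 166 FPKM in HPC, 176, 179 and 192 in early and 202, 189.9 and 189 in median LP, and its log2 change was 0.16 (SE 0.07; edgeR adjusted p = 0.0457) and 0.26 (SE 0.07; edgeR adjusted p = 0.00401). The early LP call of M6pr ended without HPC 2 (adjusted p = 0.0990), early LP 2 (0.0615), early LP 3 (0.223), median LP 2 (0.0612) or median LP 3 (0.0674), with the replicate block (0.0695) and with its main transcript alone (0.0561), and limma on FPKM called neither comparison (0.0876 to 0.256). M6pr and Tfe3 were chosen after their values were seen, to complete the receptor pair and the family. Sort1, sortilin, a receptor of several enzymes and of progranulin, was at 26.2, 22.1 and 19.7 FPKM in HPC, 68.1, 62.6 and 60.2 in early and 53.5, 62.4 and 67.9 in median LP and rose by 1.5 (SE 0.12) and 1.44 (SE 0.12). Its relative Sorl1 rose by 1.69 (SE 0.16) and 1.87 (SE 0.16). Of the adaptors that load these receptors in the Golgi, Gga1 rose by 1.24 (SE 0.07) and 1.13 (SE 0.07), while Gga3 fell by 0.45 (SE 0.07) and by 0.44 (SE 0.07).

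Of 20 subunits of the proton pump, 15 (75%) were called higher and 2 (10%) lower in both comparisons. Over all genes tested, 35.3% were called higher and 37.9% lower in early LP, and 36% and 37.7% in median LP. Atp6v1b2, Atp6v1c1 and Atp6v0a1, subunits of its catalytic and membrane sectors, rose by 1.54 (SE 0.07), 1.3 (SE 0.07) and 1.19 (SE 0.09) in early LP. Atp6v0a2, the a subunit of the Golgi, fell by 0.36 (SE 0.10), and Atp6v1f fell by 0.36 (SE 0.12; edgeR adjusted p = 0.0146), a call that ended without early LP 2 (adjusted p = 0.0504) and a value of -0.18 without HPC 3. Of 27 other membrane proteins 13 rose and 6 fell in early LP and 14 and 6 in median LP. Cd68, a heavily glycosylated LAMP relative of macrophages, rose by 2.2 (SE 0.10) and 2.54 (SE 0.10), Laptm4b by 1.7 (SE 0.17) and 1.66 (SE 0.17), and Slc36a1, an amino acid exporter, by 1.31 (SE 0.11) and 1.49 (SE 0.11). Slc38a9, the arginine sensor that signals to mTORC1, fell by 1.52 (SE 0.13) and by 1.35 (SE 0.12), the endolysosomal channel Tpcn1 by 1.44 (SE 0.06) and by 1.49 (SE 0.06), and the tetraspanin Cd63 by 0.59 (SE 0.07) and by 0.34 (SE 0.07).

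Over all genes tested, 35.3% were called higher and 37.9% lower in early LP, and 36% and 37.7% in median LP. In the list of MiT factors and their mTORC1 control, 10 of 17 rose in both comparisons, and 3 fell in early LP and 2 in median LP. Those lower in early LP were 1 without HPC 2 or early LP 3, and in median LP 1 without HPC 1, HPC 2, median LP 1 or median LP 2, with no filter or with the replicate block, where Rptor, a subunit of mTORC1, lost its call (edgeR adjusted p = 0.0592), and 4 with limma on log2(FPKM + 1). Fnip1, the partner of folliculin, rose by 1.07 (SE 0.14) and 1.27 (SE 0.14), and Mtor, the kinase itself, fell by 0.39 (SE 0.09) and by 0.34 (SE 0.09). Of 11 genes of the HOPS tether and lysosome fusion 8 rose and 0 fell in early LP, and 9 rose and 1 fell in median LP. Plekhm1, an adaptor of lysosome fusion, rose by 1.21 (SE 0.07), the small GTPase Arl8a by 0.85 (SE 0.10) and the core subunit Vps11 by 0.72 (SE 0.07) in early LP. Of 15 autophagy genes 10 rose and 1 fell in early LP, and 10 and 2 in median LP (1 lower without HPC 2, median LP 2 or median LP 3, where Wipi2 lost its call), with early rises of 1.29 (SE 0.09) for Map1lc3b and 1.05 (SE 0.08) for Gabarap, which coat the autophagosome, and 1.22 (SE 0.07) for Atg9a, its membrane scramblase. Atg16l1, part of the lipidation machinery, fell by 0.35 (SE 0.06). Of 6 cystatins and stefins, the inhibitors of cysteine cathepsins, 4 were tested and all 4 rose. Cst7, cystatin F, which acts on cathepsin C, went from 159, 135 and 141 FPKM in HPC to 478, 480.0 and 478 in early and 444, 415 and 456 in median LP, Cst3 rose by 1.31 (SE 0.09) and Cstb by 1.32 (SE 0.11) in early LP.

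Where the table lists several transcripts of a member, 1 of them carried most of the level in every group. The longer of the Lamp2 transcripts held 75.3 ± 1.85% of its FPKM in HPC, 78.3 ± 1.46% in early and 77.6 ± 0.545% in median LP. For Ctsa the minor transcript held 17.8, 16.4 and 7.18% of the level in the HPC libraries, 5.34, 1.78 and 5.08% in early and 1.85, 0.838 and 1.74% in median LP, and HPC 3 lay nearer to LP than the other HPC libraries did. The main transcript of Psap held 87.5% in HPC, 90.6% in early and 88.6% in median LP. Transcripts of a gene share reads, so these shares are estimates and carry no test.

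Markers of other bone marrow cells also differed between HPC and LP, in both directions. Over all genes tested, 35.3% were called higher and 37.9% lower in early LP, and 36% and 37.7% in median LP. Of 9 genes listed for promyelocytes and their primary granules 7 rose in both comparisons, 0 fell in early LP and 1, Nkg7, in median LP, and their summed level was 15174 to 17125 CPM in the HPC libraries, 40232 to 45389 in early and 33751 to 36211 in median LP. Not all 9 encode granule proteins (Calr does not), and Cst7, 1 of the 9, is also counted among the cystatins above. Of 11 monocyte and macrophage markers tested, 5 rose and 5 fell in both comparisons, with a summed level of 540 to 681 CPM in HPC, 1605 to 1679 in early and 1656 to 2021 in median LP. F13a1, coagulation factor XIII A of monocytes, was at 40.03 ± 5.72, 286 ± 7.97 and 294 ± 38.1 FPKM, and Mpeg1, perforin-2 of macrophages, at 25.5 ± 4.39, 45.5 ± 1.78 and 60.8 ± 3.03. The 5 that fell were Irf8, Ly86, Csf1r, Ms4a6c and Cx3cr1, each by at least 2-fold in both comparisons and named after their values were seen. Irf8, a transcription factor of the monocyte and dendritic cell lineages, was at 45.2 ± 4.61, 1.55 ± 0.209 and 1.79 ± 0.222 FPKM, and Csf1r, the receptor of macrophage colony-stimulating factor, at 13.9 ± 1.31, 4.14 ± 0.435 and 5.295 ± 0.616. Of 8 neutrophil genes 2 rose and 2 fell in early LP and 2 rose and 4 fell in median LP, with a median log2 change of 0.07 and -0.99. Their summed level was 2790 to 5098 CPM in HPC, 8981 to 9254 in early and 11117 to 12314 in median LP. This list holds S100a8 and S100a9, its most abundant genes over all libraries, beside granule genes. All 8 stem and multipotent progenitor markers fell in both comparisons, from 1001 to 1103 CPM in HPC to 259 to 260 in early and 241 to 259 in median LP. Erythroid markers summed to 3080 to 3519 CPM in HPC, 13.9 to 21.2 in early and 141 to 214 in median LP, and megakaryocyte markers to 118 to 147, 9.79 to 13.3 and 8.98 to 12.1. All 8 erythroid genes tested fell in early LP, and 7 fell and 1 rose in median LP (highest log2 change 2.57). Among 7 megakaryocyte genes 5 fell and 0 rose in both comparisons. Basophil, mast cell and eosinophil markers summed to 234 to 359 CPM in HPC, 53.7 to 69.9 in early and 36.6 to 43.2 in median LP, and those of dendritic cells and MHC class II to 97.9 to 135, 3.48 to 4.27 and 6.02 to 6.55. In the basophil, mast cell and eosinophil list 5 of 6 genes fell and 1 rose in both comparisons. All 6 dendritic cell and class II genes fell in early LP, and 5 fell and 1 rose in median LP. B cell markers summed to 15.8 to 17.7 CPM in HPC, 204 to 226 in early and 159 to 179 in median LP, with Pax5 at 0 in all HPC and early LP libraries and Igll1, a surrogate light chain, at 1.08 ± 0.605, 302 ± 21.2 and 232 ± 14.9 FPKM. Only 4 of the 7 B cell genes were tested, and they went in both directions. In early LP 2 rose and 1 fell, and in median LP 3 rose and 1 fell (lowest log2 change -5.62 and -4.79). T and NK cell markers summed to 8.37 to 10.1 CPM in HPC, 0.261 to 0.460 in early and 0.571 to 1.03 in median LP, with Cd8a at 0 in HPC and early LP, Cd3e at 0 in HPC and Cd3g at 0 in early LP. Only 1 of the 6 T and NK cell genes was tested, and that gene fell in both comparisons. The part of these cell markers in the changes of the lysosomal genes was not tested.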

How the data were processed

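RNA of sorted bone marrow cells was extracted with Trizol and made into libraries with an Illumina TruSeq RNA kit, per the labels' protocols. The submitters' processing notes name TopHat2 version 2.0.6 and build mm10. The quantifier, its annotation release and whether it used strand are not given in the sources at hand. The authors deposited 1 table of 21388 RefSeq transcripts with an FPKM value and an estimated count per library, without pooling, per the file headers. The deposited estimated counts are scaled to a common library size. Division by the step between low values gave whole fragments, within 0.05, for 89.6 to 91.3% of values of up to 50 steps.

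Transcripts were summed by gene symbol, rounded, and tested with edgeR 4.0.16 in R 4.3.3 (quasi-likelihood, TMM scaling, filterByExpr by group), with all 9 libraries in 1 fit and no covariate (common biological coefficient of variation 9.81%), after a check on simulated counts. The 3 comparisons were early LP against HPC, median LP against HPC and median LP against early LP. Levels are the deposited FPKM times 1 factor per library that puts them on the TMM scale, and CPM is on the same scale. Alternatives were RLE scaling, DESeq2 1.42.0, no filter, limma 3.58.1 on log2(FPKM + 1) and log2(FPKM + 0.1), recovered fragments, leaving out each library, a replicate block, the per-library length slope as a covariate and the main transcript alone. The limma fits took the deposited FPKM without the TMM factor. The length slope was taken from these same counts after centring within each group, so it acts on the spread within groups and hardly on the differences between them. The 30 members and all lists were chosen with earlier results of these data known. All members are named. Of each other list at most 3 called genes per direction are named, those with the largest change among genes whose higher group had a mean of at least 5 CPM, and of each marker list the 2 most abundant. Some genes that this rule names are not reported here. Coordinates are the deposited ones on mm10, counted from 1, and promoters are those of RefSeq on GRCm38.p6.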

Additional observations from a re-analysis of the deposited data

How the results depend on the processing

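The members called against HPC numbered 20 to 22 higher in early LP and 20 to 22 in median LP when 1 library was left out, against 20 and 21 in all libraries, and 2 and 3 to 4 lower. With limma on log2(FPKM + 1) and log2(FPKM + 0.1) 1 member was called lower in early LP, since the FPKM filter leaves Lgmn out. Changes near 0 that were not called turned sign. In early LP these were Ctsb (-0.0142, -0.0145 and -0.0142) and Scarb2 (-0.0103, -0.0108 and -0.0103) with limma on log2(FPKM + 1), on log2(FPKM + 0.1) and with no filter, Ctsh (-0.0504 to 0.276 without 1 library, lowest without HPC 2), Glb1 (-0.0737 to 0.018, above 0 without HPC 3 or early LP 1) and Tfe3 (-0.0573 to 0.0787, below 0 without HPC 2, early LP 2 or early LP 3, and -0.72 with the main transcript alone). Psap in early LP turned from -0.0024 to 0.0011 with RLE scaling and with DESeq2, 0.0082 with no filter, 0.000262 with the replicate block, 0.000812 with the length slope and 0.041 with the main transcript, and ran from -0.0498 to 0.0715 without 1 library. In median LP Ctsh ran from -0.0149 (without HPC 2) to 0.323 and Laptm5 from -0.0100 (without median LP 3) to 0.117.

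Counts between the phases depended most on the setting. All genes called higher, 190, were 325 by DESeq2, 93, 80 and 104 by limma with log2(FPKM + 1), log2(FPKM + 0.1) and no filter, 740 with the length slope and 66 to 391 without 1 library. Those called lower, 128, were 251 by DESeq2, 83 and 72 by limma with log2(FPKM + 1) with and without the filter, 576 with the length slope, 75 with the main transcript and 39 to 296 without 1 library. Members called lower, 1, were 2 by DESeq2, 0 by limma at every setting, 4 with the length slope and 0 to 2 without 1 library, and 1 was called higher with the length slope. The extremes without 1 library came from leaving out early LP 2 and HPC 3, and the cause was not tested. With the replicate number as a block, 62 genes were called lower between the phases in place of 128, and against HPC 20 and 21 members higher and 2 and 3 lower, as without it. Same-numbered libraries did not deviate together (correlations of -0.33 to 0.19, and 0 of 9 libraries correlated best with their own number). Where counts were low, as for Lgmn, intervals were widest.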

Other observations

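Between the phases, 3 of the 145 genes of the other lysosome lists were called (2.07%), against 2.48% of all genes tested. The 3 are named after their values were seen. Gpnmb, a membrane glycoprotein of macrophages and osteoclasts, was listed at 0, 0 and 0.00871 FPKM in HPC, 0.0510, 0.00898 and 0.0128 in early LP and 0.586, 0.930 and 0.980 in median LP (edgeR adjusted p = 0.000334 between the phases). Atp6v0d2, the d subunit of the proton pump in osteoclasts and macrophages, was at 0.0988, 0.0840 and 0.0770 FPKM in early LP and 0.254, 0.350 and 0.275 in median LP (edgeR adjusted p = 0.0243), a call that ended without any 1 of the LP libraries (adjusted p = 0.0604 to 0.121), with the replicate block (0.0614) and by DESeq2 (0.0564). Plbd1 was at 3.84, 4.50 and 3.83 FPKM in early LP and 1.01, 1.85 and 1.18 in median LP, and fell by 1.60 (SE 0.24; edgeR adjusted p = 0.00539).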
